A study of Mus musculus with 6 samples.

Results

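The p53 family and its direct inhibitors comprise 5 genes here: Trp53, Trp63 and Trp73, which encode the transcription factors p53, p63 and p73, and Mdm2 and Mdm4, which hold p53 in check. They were chosen by gene name on the array, and 14 of its 41174 distinct probes carry 1 of these names. In total, 27670 gene names are on the array. RNA of whole mouse embryos at embryonic day (E) 8.5 was measured on Agilent arrays in a single colour, each sample on its own array. The Brg1d/d embryos (conditional knockout of Brg1, 3 samples) were set against Brg1fl/fl embryos, which carry the floxed gene and serve as wild type control (3 samples). Per the labels the dams of both genotypes received tamoxifen by intraperitoneal injection. The Cre driver, the time of injection and any pooling of embryos are not stated in the labels. If replicates were not separate embryos or litters, the p-values measure only the spread between these samples.

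p53 is a DNA-binding factor that stress stabilises. It switches on genes that arrest the cell cycle, repair DNA and trigger apoptosis. In unstressed cells the ubiquitin ligase Mdm2 marks p53 for destruction, and its relative Mdm4 binds p53 and blunts its activity. Mdm2 is itself a p53 target, so that p53 and Mdm2 form a feedback loop. Because this control acts mainly on the protein, the level of the Trp53 transcript need not follow p53 activity, and loss of Mdm2 or of Mdm4 kills the mouse embryo unless p53 is also removed. p63 is required for the epidermis and other stratified epithelia, and p73 for parts of the developing brain and for multiciliated cells. Arrays read transcripts, so the p53 protein was not measured.

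Levels below are log2 signals from which the 75th percentile of the same array was subtracted, so 0 is the level of a fairly bright probe. A level says nothing across probes, which differ in brightness for the same amount of RNA. A difference is the Brg1d/d mean minus the Brg1fl/fl mean. A probe was tested where either genotype had it well above background on each of its 3 arrays, and it passed at a limma adjusted p under 0.05 over all tested probes. Of the 14 probes, 11 were tested, and each of the 5 genes kept at least 1.

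The following probes are shown as examples of those that read the members, and each is printed 5′ to 3′ in lower case with no base singled out. The Trp63 probe shown was too dim to test, and the Mdm2 and Mdm4 probes shown are not the brightest of their genes. They are the array's probes for Trp53 and for Mdm2 that were printed on 10 spots of each array, 1 Mdm4 probe and 1 Trp63 probe. Positions are those of the array's annotation (build mm7), which names the transcript and not the exon. The Trp53 probe lies at chr11:69671206-69671265 on the + strand, the Mdm2 probe at chr10:117204040-117204099 on the - strand, the Mdm4 probe at chr1:132892750-132892809 on the - strand, and the Trp63 probe at chr16:25526842-25527619 on the + strand. The Trp63 positions span 778 bases for a probe of 60 bases, so that probe joins separate stretches of the genome.
Trp53 A_52_P491849: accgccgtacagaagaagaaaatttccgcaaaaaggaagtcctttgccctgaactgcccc
Mdm2 A_51_P201346: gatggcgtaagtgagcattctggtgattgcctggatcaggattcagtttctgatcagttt
Mdm4 A_52_P485905: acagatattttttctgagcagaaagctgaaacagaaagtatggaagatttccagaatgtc
Trp63 A_52_P17264: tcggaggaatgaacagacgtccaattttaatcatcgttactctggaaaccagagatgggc

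Several facts of the arrays bear on the results. The 3 Brg1fl/fl arrays and Brg1d/d 2 were scanned on the same day, and Brg1d/d 1 and Brg1d/d 3 each on another. The brightest spike-in control read 12934 and 6905 units on Brg1d/d 1 and 3, against 208550 to 241121 units on the other 4 arrays. On this signal alone, Brg1d/d 1 and 3 are called a separate labelling batch below, although no label names one. A same-day difference, Brg1d/d 2 minus the mean of the 3 Brg1fl/fl arrays, is therefore given beside the main one. Because the 3 Brg1fl/fl arrays share a slide and each Brg1d/d array has its own, slide and genotype cannot be told apart. The targeted gene, Smarca4, which encodes Brg1, was lower on all 3 Brg1d/d arrays at each of its 3 probes. Its brightest probe read 1.49, 2.65 and 1.999 in Brg1d/d embryos, against 5.28, 4.45 and 4.495 in Brg1fl/fl embryos (difference -2.69 ± 0.36, SE, limma adjusted p = 0.0114). Whether that probe lies in the deleted part is not known here. Over all 18410 gene names tested the median difference was 0.09, and 952 genes were higher and 885 lower in Brg1d/d.

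Among the members, Mdm2 rose about 1.9-fold in Brg1d/d embryos at both of its probes. No probe of Trp53, Trp63, Trp73 or Mdm4 passed the test. In counts, 2 of the 11 tested probes (18.2%) passed, both upwards. Over all 27854 tested probes 9.37% passed, 5.03% upwards and 4.34% downwards. With so few member probes, that share is a description only.

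**Figure D1:**
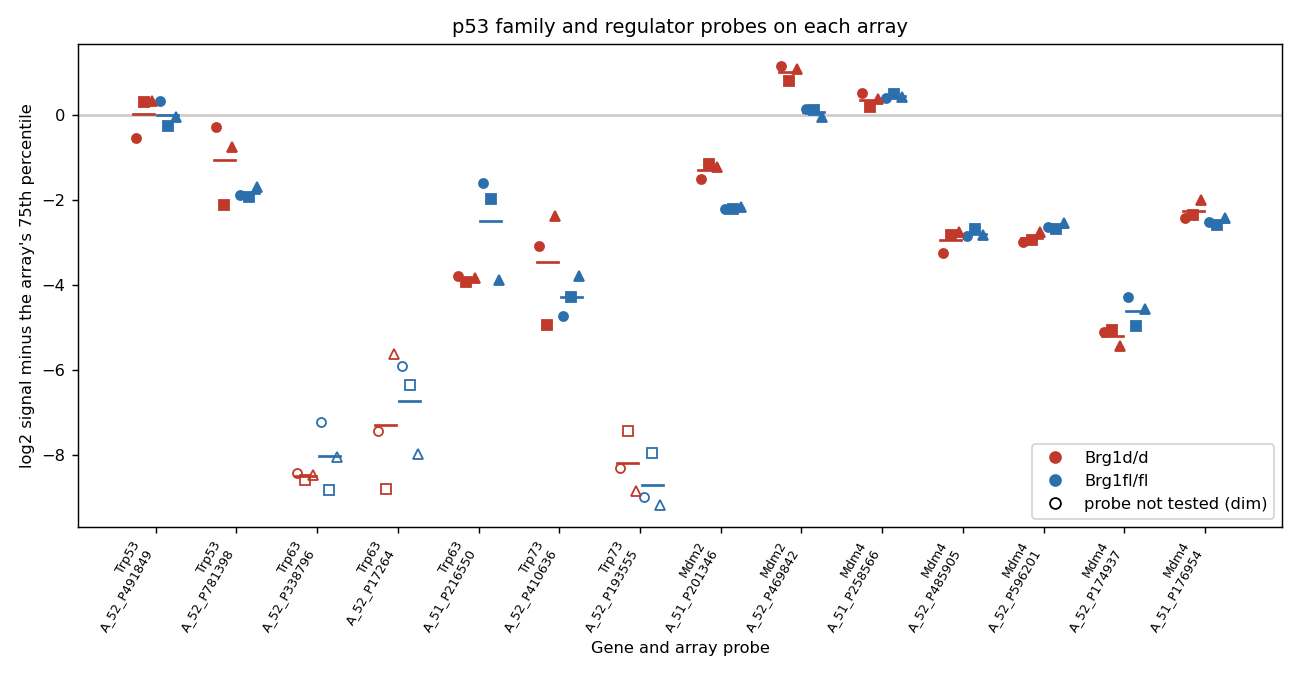
Level of each of the 14 member probes on each array, in log2 units relative to the array's 75th percentile; circles, squares and triangles are replicates 1, 2 and 3, red Brg1d/d and blue Brg1fl/fl, bars are means and open symbols are probes too dim to test. The genotypes separate upwards at both Mdm2 probes and overlap at both Trp53 probes.

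Trp53 showed no detectable difference at the probe printed on 10 spots. A_52_P491849 read -0.54, 0.29 and 0.33 in Brg1d/d 1, 2 and 3, against 0.32, -0.28 and -0.04 in Brg1fl/fl 1, 2 and 3. The genotypes overlapped fully, since the lowest array and the highest were both Brg1d/d. The difference was 0.03 ± 0.29 (SE, n = 3 and 3), with a limma adjusted p of 0.957. With both Trp53 probes averaged it was 0.40 (limma adjusted p = 0.252). The 95% interval of A_52_P491849 alone ran from -0.68 to 0.73, or 0.626-fold to 1.66-fold. With 3 arrays a genotype, the values do not tell a change within those bounds from none. Of all tested probes, 3.71% had a smaller absolute difference than A_52_P491849. The 10 spots of this probe varied within an array by 1.93% to 4.19% (coefficient of variation), less than the spread between arrays. The same-day difference was 0.29.

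The other Trp53 probe, A_52_P781398 (chr11:69662031-69662089), read -0.29, -2.12 and -0.76 in Brg1d/d, against -1.89, -1.93 and -1.695 in Brg1fl/fl. Brg1d/d 1 and 3 were high, and Brg1d/d 2 lay below every Brg1fl/fl array. The 2 high arrays are those of the other scan days and of the low spike-in signal. The difference of 0.78 ± 0.45 (SE) did not pass (limma adjusted p = 0.272), and the same-day difference was -0.28. Without Brg1d/d 2 it was 1.31 with a limma adjusted p of 0.0213. The part of scan day or labelling in this reading was not tested.

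Trp63 was low on all 3 Brg1d/d arrays and on 1 Brg1fl/fl array. Probe A_51_P216550 (chr16:25553466-25553525) read -3.80, -3.94 and -3.835 in Brg1d/d, against -1.60, -1.99 and -3.89 in Brg1fl/fl. The genotypes overlapped because Brg1fl/fl 3 lay at the Brg1d/d level. The difference was -1.36 ± 0.57 (SE, n = 3 and 3), with a 95% interval of -2.73 to 0.01, and it did not pass (limma adjusted p = 0.159). Without Brg1fl/fl 3 it was -2.06 with a limma adjusted p of 0.0113, so 1 control array decided the call. The same-day difference was -1.44.

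The other Trp63 probes could not be tested. A_52_P17264, whose sequence is given above, was well above background on 1 of 3 Brg1d/d arrays and 2 of 3 Brg1fl/fl arrays, and its levels of -7.45, -8.80 and -5.63 in Brg1d/d, against -5.90, -6.35 and -7.98 in Brg1fl/fl, overlapped. A_52_P338796 was not well above background on any array. The p63 gene makes isoforms with different starts and ends, and these probes do not tell them apart here.

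Markers of the surface ectoderm, where p63 acts in the embryo, were read beside Trp63. Krt5, a basal keratin gene, fell by 1.87 ± 0.44 (SE, limma adjusted p = 0.0497, at the edge of the threshold). It read -3.91, -4.61 and -4.16 in Brg1d/d, against -1.55, -2.24 and -3.27 in Brg1fl/fl, again with Brg1fl/fl 3 lowest of the controls. Krt15 differed by -0.78 (limma adjusted p = 0.126) and Krt14 by -0.01 (0.99). Dlx3 and Gata3 were higher on every Brg1d/d array, by 0.80 (limma adjusted p = 0.192) and 0.69 (0.135). Of the 13 surface ectoderm markers tested, 1 fell and 0 rose, beside 4.81% and 5.17% of all genes. The median difference of these markers was 0.12, beside 0.09 over all genes. Their summed signal was 0.0166% to 0.0253% of the array's signal in Brg1d/d, against 0.0187% to 0.0235% in Brg1fl/fl. In bulk RNA of whole embryos, fewer cells of a type and less RNA per cell cannot be told apart.

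Trp73 was dim and scattered. Probe A_52_P410636 (chr4:153048476-153048535) read -3.09, -4.945 and -2.38 in Brg1d/d, against -4.74, -4.29 and -3.80 in Brg1fl/fl. Brg1d/d 1 and 3 lay above every Brg1fl/fl array and Brg1d/d 2 below every one, the same split as at the second Trp53 probe. The difference was 0.80 ± 0.65 (SE, n = 3 and 3), with a 95% interval of -0.75 to 2.36 and a limma adjusted p of 0.414. The same-day difference was -0.67, and without Brg1d/d 2 the value was 1.54 (limma adjusted p = 0.0433). The other probe, A_52_P193555, was not well above background on any array. Among markers of ciliated cells and of the developing brain, where p73 has a known role, 2 of 8 tested rose and 1, Lhx5, fell. Their median difference was 0.49, beside 0.09 over all genes, of which 5.17% passed upwards and 4.81% downwards. Dnah5, 1 of those that rose, was not well above background on any Brg1fl/fl array and was tested only through the genotype where it is high. The summed signal of the list was 0.00281% to 0.00326% in Brg1d/d, against 0.00315% to 0.00442% in Brg1fl/fl.

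Mdm2 rose in Brg1d/d at both of its probes. The brightest probe, A_52_P469842 (chr10:117200593-117200652), read 1.15, 0.785 and 1.07 in Brg1d/d, against 0.14, 0.115 and -0.04 in Brg1fl/fl. Every Brg1d/d array lay above every Brg1fl/fl array. The rise was 1.91-fold, with a 95% interval of 1.45-fold to 2.51-fold, or 0.93 ± 0.165 on the log2 scale (SE, n = 3 and 3), and the limma adjusted p was 0.0246. The same-day difference was 0.715.

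The Mdm2 probe whose sequence is given above, A_51_P201346, gave nearly the same rise. It read -1.50, -1.16 and -1.22 in Brg1d/d, against -2.22, -2.22 and -2.16 in Brg1fl/fl. Again the genotypes did not overlap, and the rise was 1.88-fold (0.91 ± 0.16, SE, on the log2 scale; limma adjusted p = 0.0234). Its 10 spots gave mean signals of 575.3, 436.2 and 680.3 units in Brg1d/d, against 216.0, 216.9 and 214.4 units in Brg1fl/fl, before the scaling to the 75th percentile. The spots varied within an array by 3.14% to 11.95%, less than the gap between genotypes. The same-day difference was 1.045.

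**Figure D2:**
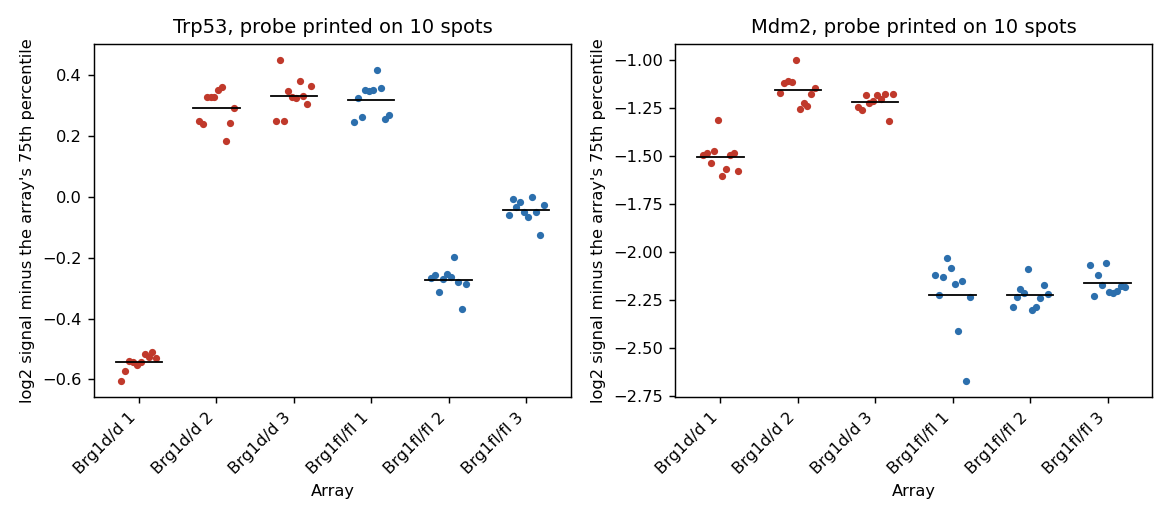
The 10 spots of the Trp53 probe A_52_P491849 (left) and of the Mdm2 probe A_51_P201346 (right) on each array, in log2 units relative to the array's 75th percentile; points are spots, red Brg1d/d and blue Brg1fl/fl, and bars are array values. For Mdm2 every Brg1d/d array lies above every Brg1fl/fl array, whereas for Trp53 Brg1d/d 1 lies lowest and Brg1d/d 3 highest.

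The call for Mdm2 was sensitive to the fit, the size less so. With any 1 array left out, the difference of the brightest probe stayed between 0.86 and 1.04. Its limma adjusted p was 0.0957 without Brg1d/d 1, 0.107 without Brg1d/d 3, 0.105 without Brg1fl/fl 2 and 0.0694 without Brg1fl/fl 3, so the call was lost in each of these fits. With scan day as a block, which leaves only the same-day arrays to set the difference, the limma adjusted p was 0.396. The probe A_51_P201346 lost its call in the same fits, with limma adjusted p-values of 0.055 without Brg1d/d 1, 0.106 without Brg1d/d 3, 0.109 without Brg1fl/fl 2, 0.0599 without Brg1fl/fl 3 and 0.267 with scan day. It also did not pass at 0.134 with labelling batch as a block, 0.0714 with the replicate block or 0.052 with no filter on dim probes.

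**Figure D3:**
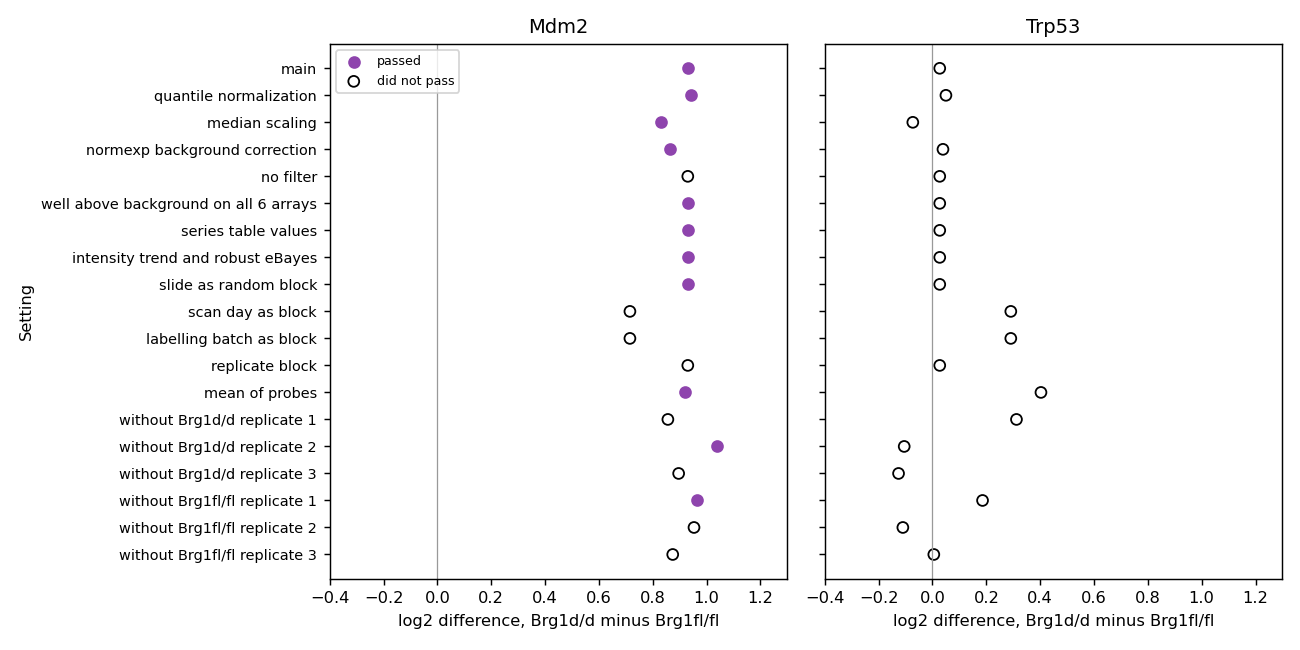
Difference of the brightest Mdm2 probe (left) and of the Trp53 probe A_52_P491849 (right) under each setting, in log2 units, Brg1d/d minus Brg1fl/fl; filled symbols passed the limma test and open ones did not. Mdm2 stays positive between 0.715 and 1.04, and Trp53 lies on both sides of 0.

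Set against Trp53 within the same array, Mdm2 was higher in Brg1d/d but beyond the reach of the test. The Mdm2 level minus the Trp53 level (brightest probes) was 1.69, 0.49 and 0.735 in Brg1d/d, against -0.18, 0.39 and 0.00 in Brg1fl/fl. The means were 0.97 ± 0.63 in Brg1d/d and 0.07 ± 0.29 in Brg1fl/fl (SD, n = 3 each), a difference of 0.90 (0.52 with the mean of each gene's probes). Every Brg1d/d array lay above every Brg1fl/fl array, and the two-sided exact permutation p was 0.1, the smallest that 3 against 3 arrays allow.

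Mdm4 did not pass at any of its 5 probes. The brightest, A_51_P258566, read 0.50, 0.18 and 0.36 in Brg1d/d, against 0.39, 0.49 and 0.41 in Brg1fl/fl, and the genotypes overlapped. Its difference was -0.08 ± 0.15 (SE), with a 95% interval of -0.45 to 0.29 and a limma adjusted p of 0.74. The interval leaves out a rise as large as that of Mdm2 at its brightest probe, although the difference between both genes was not tested.

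The other Mdm4 probes did not all point the same way. A_52_P485905, whose sequence is given above, differed by -0.16 ± 0.185 (SE), and A_51_P176954 by 0.25 ± 0.17 (SE). A_52_P596201 was lower on every Brg1d/d array, with -3.00, -2.94 and -2.75 in Brg1d/d, against -2.65, -2.69 and -2.56 in Brg1fl/fl, and a difference of -0.26 ± 0.15 (SE). A_52_P174937 was likewise lower throughout, with -5.12, -5.07 and -5.44 in Brg1d/d, against -4.29, -4.96 and -4.58 in Brg1fl/fl, and a difference of -0.60 ± 0.22 (SE). Their limma adjusted p-values lay between 0.127 and 0.575. In all, 4 of the 11 tested member probes had no overlap between genotypes, 2 higher and 2 lower in Brg1d/d, and over all tested probes 39.3% had none (21.8% higher and 17.5% lower).

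The levels of genes that p53 can switch on were taken as a transcript readout of its activity. That activity was not itself measured, and other inputs to these genes were not tested. Of 56 such genes listed from common knowledge of the pathway, apart from the members, 52 were tested: 19 rose in Brg1d/d, 0 fell and 33 did not pass. Over all genes 5.17% passed upwards. The list was chosen with earlier results of these data known, so its counts beside those of all genes are a description only. The list's median difference was 0.58, beside 0.09 over all genes, and 43 of the 52 were positive, beside 56.2% of all genes. The same-day median was 0.46, beside 0.01 over all genes, with 38 of 52 positive, beside 51% of all genes. The genotypes did not overlap at 26 targets that were higher and 5 that were lower in Brg1d/d, beside 39.6% of all genes, 22% higher and 17.6% lower. The same-day differences of the 19 lay between 0.71 and 3.33. They are positive by construction, because none of the 19 had overlapping genotypes. Each target was read at its brightest kept probe. Among the 33 that did not pass, dimmer probes of Aen, Apaf1 and Sfn did pass upwards. Their differences were 0.87 for Aen, 0.95 for Apaf1, and 2.08 and 1.88 for Sfn, with limma adjusted p-values of 0.0128 to 0.0308. Conversely, among the 19, a dimmer probe each of Fas, Trp53inp1, Polk, Tnfrsf10b and Dcxr did not pass. These probes differed by 0.43 to 1.75, with limma adjusted p-values of 0.0781 to 0.322.

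Genes of cell cycle arrest and growth control were among those that rose. Cdkn1a encodes p21, the inhibitor of cyclin-dependent kinases through which p53 halts the cycle. It read -0.405, -0.96 and -0.55 in Brg1d/d, against -2.58, -2.66 and -2.46 in Brg1fl/fl, with no overlap. This 3.81-fold rise (1.93 ± 0.19, SE, on the log2 scale) had a limma adjusted p of 0.00491. Ccng1, encoding cyclin G1, rose 3.48-fold and stood at nearly equal levels on the Brg1d/d arrays, with 1.89, 1.89 and 1.87, against -0.30, 0.09 and 0.47 in Brg1fl/fl. Plk3, a stress-responsive kinase gene, rose 2.54-fold, and Sesn2, whose product restrains the mTOR pathway, 1.85-fold (limma adjusted p = 0.0477). Gadd45a, an arrest gene with inputs beside p53, differed by -0.19 (limma adjusted p = 0.568).

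Several targets with roles in apoptosis passed and others did not. Pmaip1, which encodes the BH3-only protein Noxa, read 1.67, 1.57 and 1.299 in Brg1d/d, against -0.54, -0.78 and -0.70 in Brg1fl/fl. It rose 4.56-fold (2.19 ± 0.17, SE, on the log2 scale; limma adjusted p = 0.00255). Bbc3, which encodes the BH3-only protein Puma, rose 2.86-fold, and Bax, whose product permeabilises mitochondria, 1.62-fold with a limma adjusted p of 0.0499, at the edge of the threshold. The death receptor genes Fas and Tnfrsf10b rose 2.82-fold and 2.45-fold, and Eda2r, a receptor gene of the same superfamily, 5.01-fold. Phlda3, whose product restrains Akt signalling, rose 3.58-fold, and Trp53inp1, whose product promotes p53 activity, 2.77-fold. Apaf1, which encodes the scaffold of the apoptosome, differed by 0.12 at its brightest probe (limma adjusted p = 0.696). Its dimmer probes differed by 0.27 (A_51_P368696, limma adjusted p = 0.493) and 0.95 (A_52_P621991, limma adjusted p = 0.0308). Bid differed by 0.56 (0.168) and Siva1 by -0.37 (0.186).

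Tap1, a peptide transporter gene of antigen presentation, and Zfp365 also passed, but were well above background on 1 of 3 Brg1fl/fl arrays only and entered the test through the genotype where they are high. Their folds of 9.73 and 3.28 rest on Brg1fl/fl signals near background. With only probes well above background on all 6 arrays, 17 targets rose. Btg2, Sesn1, Rrm2b and Pidd1 had no overlap between genotypes and differed by 0.99, 0.57, 1.68 and 1.01, with limma adjusted p-values of 0.0652 to 0.0906. Zmat3, an RNA-binding protein gene, differed by 0.34 (limma adjusted p = 0.337). Of the 52 genes, 22 had differences above 0.73, the upper end of the 95% interval of the Trp53 probe A_52_P491849. Below the lower end of that interval lay 0. Of the 19 that rose, 17 lay above its upper end, all but Bax and Abhd4. A target needs a large difference to pass, so the count of 17 follows in part from the call. The 95% interval of the other Trp53 probe, A_52_P781398, ran from -0.31 to 1.87, so these counts hold for A_52_P491849 only. The difference between each target and Trp53 was not tested.

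**Figure D4:**
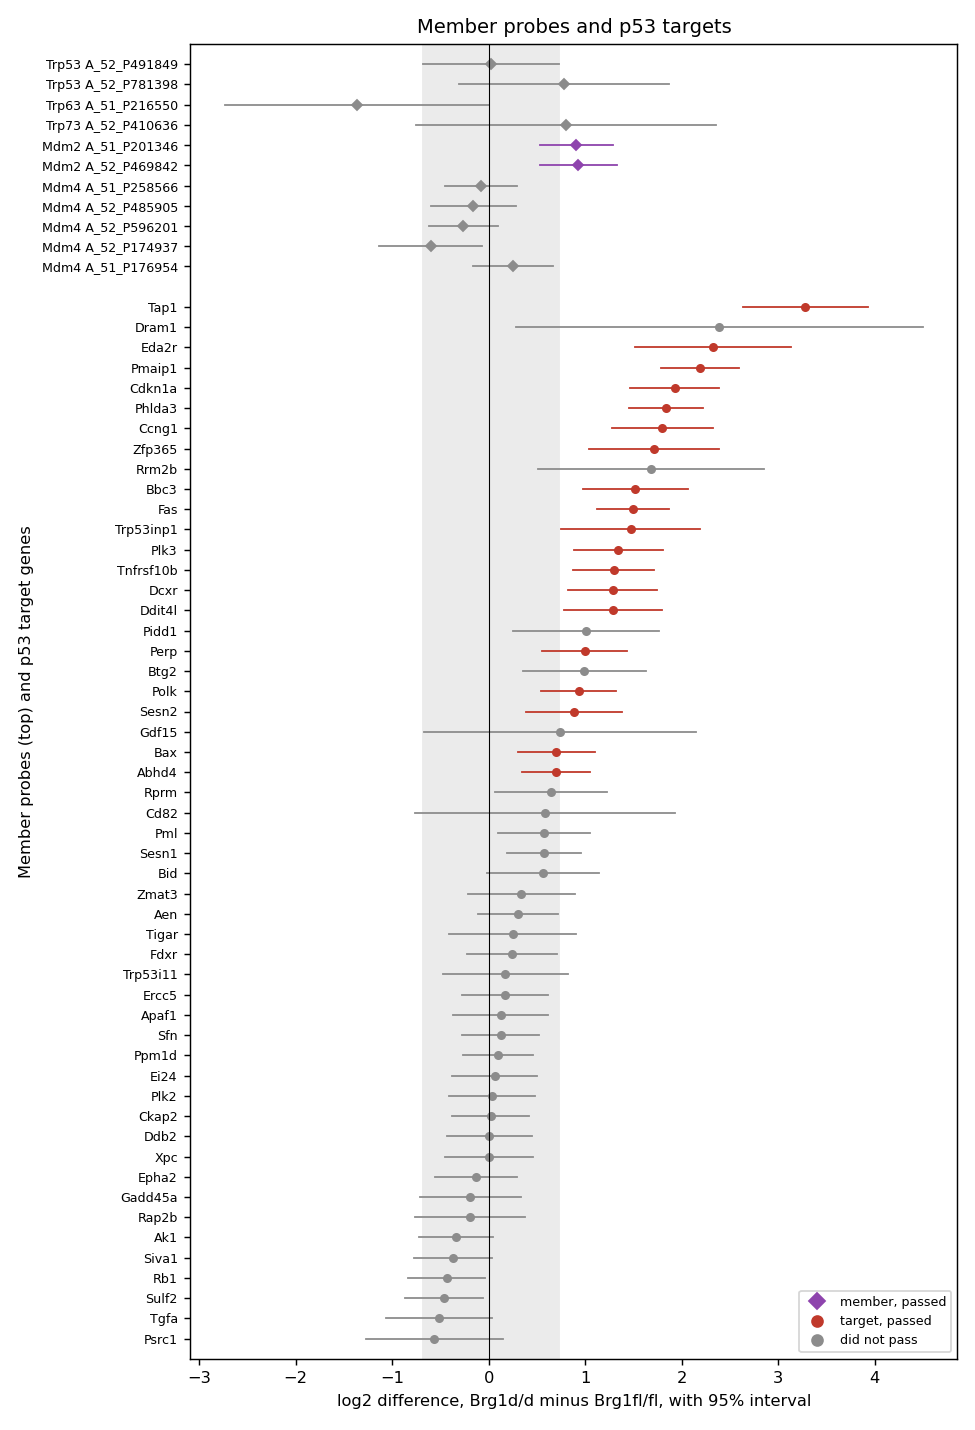
Difference of the 11 tested member probes (diamonds) and the 52 tested p53 targets (circles), in log2 units, Brg1d/d minus Brg1fl/fl, with 95% intervals; violet and red passed the limma test, grey did not, and the shaded band is the interval of the Trp53 probe A_52_P491849. Both Mdm2 probes and 19 targets passed, all to the right of 0.

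The count of 19 depended on the arrays and on the model. With scan day as a block 0 of the 52 passed (18 were higher at an unadjusted p under 0.05), and with the labelling batch, read from the spike-in signal, 1 passed. Leaving out 1 array gave counts of 6 to 22, and 0 of the 52 fell in any of these fits. The counts were 7 without Brg1d/d 1, 7 without Brg1d/d 3, 6 without Brg1fl/fl 2 and 12 without Brg1fl/fl 3. The 22 without Brg1d/d 2 include 1 gene outside the 52, which that fit's filter let in, and 21 of the 52. The replicate number as a block gave 9.

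Markers of several tissues moved with these targets. For the counts below, 5.17% of all genes passed upwards and 4.81% downwards. Of 10 heart markers 8 fell, and their summed signal was 0.0131% to 0.0179% in Brg1d/d, against 0.151% to 0.224% in Brg1fl/fl. Of 9 trophoblast markers tested 5 rose and 1 fell, with 0.0279% to 0.0396% in Brg1d/d, against 0.0235% to 0.0294% in Brg1fl/fl, while Gcm1 and Tpbpa were not well above background. Among 10 neural markers 3 fell and 1 rose, and En1, 1 of those that fell, was not well above background on any Brg1d/d array. Of 10 somite markers 3 fell. Endothelial (10 tested) and decidual (8 tested) markers each had 3 that fell and 1 that rose. The decidual marker that rose, Prl8a2, was well above background on 1 of 3 Brg1fl/fl arrays only. Of 10 primitive erythroid markers 2 fell, with a summed signal of 0.0614% to 0.0678% in Brg1d/d, against 0.0718%, 0.26% and 0.279% in Brg1fl/fl 1, 2 and 3. Those that fell, Ermap and Hemgn, were well above background on 1 and 2 of 3 Brg1d/d arrays. Prl8a2, Ermap and Hemgn thus entered the test only through the genotype where they are high. Yolk sac endoderm markers had 0.367% to 0.403% in Brg1d/d, against 0.0993%, 0.449% and 0.465% in Brg1fl/fl 1, 2 and 3, so Brg1fl/fl 1 stood apart. Without Brg1fl/fl 1 the Mdm2 difference was 0.96 and 20 targets passed. Of 10 leukocyte markers 6 were tested and 1, Cd79b, fell (limma adjusted p = 0.0396), 4 of the 6 differences were positive, and Ptprc, Itgam, Ms4a1 and S100a8 were too dim to test. Cd79b was well above background on 2 of 3 Brg1d/d arrays and entered the test only through Brg1fl/fl, where it is high. The summed leukocyte signal was 0.000443% to 0.000591% in Brg1d/d, against 0.000312% to 0.000619% in Brg1fl/fl. The part of tissue make-up in the rise of Mdm2 and of the targets was not tested.

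Upstream of p53, 3 of 48 tested regulators passed, 2 upwards and 1 downwards, with a median difference of 0.14. That share is below the 9.98% of all genes that passed. Cdkn2a rose by 2.45 ± 0.535 (SE, limma adjusted p = 0.0407). This locus encodes p19Arf, which inhibits Mdm2, and p16Ink4a from another reading frame, and the reading does not tell them apart here. It read -1.73, -1.57 and -1.61 in Brg1d/d, against -5.41, -3.40 and -3.45 in Brg1fl/fl, where Brg1fl/fl 1 was far the lowest.

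Chek2, a kinase gene of the DNA damage response whose product phosphorylates p53, rose by 1.27 ± 0.17 (SE, limma adjusted p = 0.0109). Its levels were -0.95, -0.99 and -0.65 in Brg1d/d, against -2.06, -2.29 and -2.06 in Brg1fl/fl. Hipk2, a kinase gene whose product phosphorylates p53 in favour of apoptosis, fell by 1.27 ± 0.15 on the log2 scale (SE, limma adjusted p = 0.00743). It read 2.56, 2.61 and 2.65 in Brg1d/d, against 3.74, 3.92 and 3.98 in Brg1fl/fl. Rpl11, a ribosomal protein gene whose product binds Mdm2, differed by 0.65, Prmt5 by 0.63, E2f1 by 0.58 and Ncl by 0.49, with limma adjusted p-values of 0.0733 to 0.0868. Of the 48 regulators, 0 passed upwards and 1 downwards without Brg1d/d 1, without Brg1d/d 3 or without Brg1fl/fl 2, so the calls of Cdkn2a and Chek2 were lost in each of these fits.

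Among 16 tested partners and regulators of p63 and p73, 1 passed, beside 9.98% of all genes. Their median difference was 0.05, beside 0.09 over all genes. Pias1, Itch, Stxbp4 and Ubb differed by -0.46, -0.43, 0.48 and 0.40 and did not pass. Itch encodes a ubiquitin ligase that acts on p63 and p73.

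Of 22 tested cell cycle genes that are known to fall when p53 and p21 are active, 1 fell and 0 rose, with a median difference of 0.05. Over all genes 4.81% passed downwards. Rrm2, encoding a subunit of ribonucleotide reductase, fell by 0.66 ± 0.14 on the log2 scale (SE, limma adjusted p = 0.0393). It read 3.01, 3.02 and 3.04 in Brg1d/d, against 3.745, 3.755 and 3.56 in Brg1fl/fl. Bub1, a spindle checkpoint kinase gene, differed by -0.66 (limma adjusted p = 0.0636) and Kif23 by -0.32, whereas Cdc25c and Mcm5 differed by 0.52 and 0.42.

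The genes whose levels followed each member most closely over the 6 arrays are named by the smallest root mean square difference (RMS, log2 units) between profiles centred on their own means. For Mdm2 these were St6galnac6 (RMS 0.021), Usp5 (0.037) and the p53 target Polk (0.056). Polk, which encodes a DNA polymerase of translesion synthesis, was 1.91-fold higher in Brg1d/d at its brightest probe. Its other tested probe, A_52_P460095, differed by 0.43 on the log2 scale and did not pass (limma adjusted p = 0.322). For Trp53 they were Hnrnpa0 (0.074) and Adgrg6 (0.080), and for Mdm4 Xrcc5 (0.028), Ube2d2a (0.035) and a transcript listed as TC1534798 (0.040). For Trp63 they were Tfap2b (0.188), an ectoderm and neural crest factor gene, Sdc3 (0.195) and Npnt (0.246). The match was looser there, and each had Brg1fl/fl 3 far below the other Brg1fl/fl arrays. For Trp73 they were TC1440579 (0.194), NAP053480-1 (0.217) and Cby2 (0.222). With 6 points in a profile and 18410 genes to choose among, the measure is a description.

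Promoters were read for the p53 half-site, the consensus decamer of which p53 binds a pair. RefSeq windows of 300 bases (GRCm38.p6, 250 before and 50 after each start) held promoters for 4 of the 5 members. The decamer is its own reverse complement, so a single reading covers both strands. Among promoters of the listed targets 16 of 65 (24.6%) held it, and 6 of 20 (30%) for those that rose, beside 2745 of 32851 (8.36%) of all promoters. Mdm2 and Trp53 each held 1, 186 and 75 bases before the start. The stretches below show both, with those of the targets Bax, Ccng1 and Polk for comparison, 5′ to 3′ along the gene and with the half-site in capitals. They lie at chr10:117710925-117710954 (Mdm2, - strand), chr11:69580274-69580303 (Trp53, + strand), chr7:45467080-45467109 (Bax, - strand), chr11:40755452-40755481 (Ccng1, - strand) and chr13:96519399-96519428 (Polk, - strand).
Mdm2: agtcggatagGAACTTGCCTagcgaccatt
Trp53: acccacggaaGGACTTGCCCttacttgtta
Bax: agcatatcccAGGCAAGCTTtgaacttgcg
Ccng1: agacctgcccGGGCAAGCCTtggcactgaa
Polk: catgtagcttGAACTAGCCTcaaacttatt

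A pair of half-sites within 13 bases of each other, the full element, was found in the window of 1 listed target, Cdkn1a, and in 24 of all promoters (0.0731%). The matched pair lies at chr17:29090906-29090937 on the + strand, and capitals mark its half-sites. The bases just after it, tgacatgttc, miss the decamer only at their first base and so were not counted. Which of these stretches p53 would bind was not tested.
Cdkn1a: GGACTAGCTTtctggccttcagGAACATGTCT
The well-known p53 sites of Mdm2 lie in its first intron, beyond this window. A match is a run of letters and no record of binding, and a window without one says nothing about p53.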

How the data were processed

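Per the labels, RNA of 6 whole-embryo samples was labelled with Cy3 from 250 ng and hybridised to 1-colour arrays. Per the file headers, the authors' Feature Extraction software (version 9.5 per the submitters' processing notes) gave each spot a background-subtracted intensity and flags of 0 or 1 (unit: other). The deposited series table holds the same intensity values, with 100% of spots matching (relative tolerance 0.0001). Its columns all belong to these samples.

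Control spots were dropped, as were 53 to 83 outlier spots on each array, and spots of the same probe were averaged. Values were put on a log2 scale minus each array's 75th percentile, which was 1630, 972 and 1583 units in Brg1d/d, against 1000, 1011 and 959 units in Brg1fl/fl. Spots well above background made up 68.7% to 73.5% in Brg1d/d, against 68.5% to 69.3% in Brg1fl/fl. The number of arrays limits the precision. Of the probes, 32716 were named through the RefSeq table and 8458 kept the array's name. limma 3.58.1 in R 4.3.3 (lmFit and eBayes, two-sided) was fitted to 27854 probes with Benjamini-Hochberg adjustment and a threshold of 0.05, and tested on simulated data. A gene was counted through its brightest kept probe.

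The members, lists and tests were chosen with earlier results of these data known. Named genes were every member probe, per list up to 12 that passed with the largest differences and up to 4 others with the smallest p, 13 fixed genes, and 3 genes most like each member. Abhd4, Aen, Apaf1, Bid, Dcxr, Sfn and Siva1 are named outside this rule, after their values were seen. Some results are left unreported. Replicate numbers were not found to pair samples. Alternatives were quantile and median scaling, normexp (offset 50), no filter and a stricter filter, the series table, an intensity trend with robust eBayes, slide, scan day, labelling batch and replicate number as blocks, the mean of a gene's probes, and each array left out. Python 3.11.15 and matplotlib 3.10.9 were used.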

Additional observations from a re-analysis of the deposited data

How the results depend on the processing

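Mdm2 was positive in all settings run, at 0.86 to 1.04 with 1 array left out. It did not pass at 0.93 without a filter on dim probes (limma adjusted p = 0.0542), at 0.93 with the replicate block (0.0734), or at 0.715 with scan day (0.396) or labelling batch (0.227) as a block. Trp53 was -0.073 with median scaling and -0.13 to 0.31 with 1 array left out (-0.105 without Brg1d/d 2, -0.13 without Brg1d/d 3, -0.11 without Brg1fl/fl 2). With the mean of both Trp53 probes it was 0.40 (limma adjusted p = 0.252). Its other probe was -0.28 with scan day or labelling batch as a block. Trp73 was -0.67 under both of these blocks and 0.26 to 1.54 with 1 array left out, Trp63 -2.06 to -0.915, and Mdm4 -0.16 to 0.004 (0.004 without Brg1d/d 2). Mdm2 minus Trp53 ranged from 0.54 to 1.14 with 1 array left out and was 0.52 with the mean of each gene's probes (two-sided exact permutation p = 0.1).

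Of all genes, 1837 changed, against 813 with no filter, 667 with the replicate block, 130 with labelling batch and 0 with scan day as a block (2112 at an unadjusted p under 0.05), and 349 to 3785 with 1 array left out. The 19 targets that rose became 9 with the replicate block, 1 with labelling batch, 0 with scan day, 17 with the stricter filter, and 6 to 22 with 1 array left out. Regulators that changed (3) numbered 6 with an intensity trend, 0 with scan day or labelling batch as a block, and 1 to 5 with 1 array left out. The 1 partner of p63 and p73 became 0 with normexp, no filter, scan day, labelling batch or replicate block, and 0 to 1 with 1 array left out. The 1 repressed cell cycle gene became 2 with normexp or an intensity trend, 0 with no filter, scan day, labelling batch or replicate block, and 0 to 2 with 1 array left out. The blocks by day and batch leave fewer arrays to set the difference; other causes were not tested. The correlation of deviations of same-numbered samples was -0.127, 0.081 and 0.091, so the replicate number is not a pairing. The median over all genes was 0.09 in the fit reported above, -0.01 with median scaling, 0.00 with normexp and 0.19 with no filter.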
